A study of Homo sapiens with 4 samples.

Results

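CDK8 was mapped at 7 genes of the Notch pathway in the human colorectal cancer cell line HCT116. The genes were 3 receptors (NOTCH1, NOTCH2 and NOTCH3), 2 ligands (JAG1 and JAG2) and 2 target genes (HES1 and HEY1). Members were the chromatin immunoprecipitation sequencing (ChIP-seq) peaks that overlapped a window of each gene and about 20 kb on each side. Peaks were taken by position, and the members and lists were chosen with earlier results of these data known. Peaks that touched or overlapped in any of the 3 CDK8 peak lists were joined into regions. In the 608 kb of the 7 windows there were 26 regions, of 28150 in all. The normoxia library came from cells kept in normoxia, whose oxygen level the labels do not give. The 2 hypoxia libraries, replicates 1 and 2 (hypoxia 1 and hypoxia 2), came from cells kept for 24 h in 1% oxygen. A single input library of HCT116 DNA was not analysed here. All 3 CDK8 libraries used the same antibody against CDK8, and the labels name no genetic change of the cells in any of them. Whether hypoxia 1 and hypoxia 2 were separate cultures is not in the labels, so their spread may be technical, and normoxia has no replicate.

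Notch signalling passes between touching cells. A Jagged ligand on a cell binds a Notch receptor on its neighbour, the receptor is cut by proteases, and its freed intracellular part enters the nucleus. There it joins the DNA-binding protein RBPJ and a Mastermind coactivator and turns on genes such as HES1 and HEY1, which encode repressors of transcription. In the intestine, HES1 is known to hold progenitor cells back from the secretory fate. CDK8 is the kinase of the Mediator complex. With cyclin C it is known to phosphorylate the intracellular part of Notch, which marks it for degradation.

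The lists held 19862 peaks in normoxia, 21993 in hypoxia 1 and 14256 in hypoxia 2. Read depth is unknown, since the lists give no read counts. Each peak's score is the authors' own value. It is given here as a percentile within its list, in which 100 is the best peak, and percentiles from lists of unequal length show no change in binding. Hypoxia 1 stood apart from the other libraries. Its peaks went down to 181 bp in length, those of normoxia to 226 bp and those of hypoxia 2 to 225 bp, and it listed 122 peaks on chromosome Y where the others listed 0. Counts of regions, and the comparisons over the 7 windows, are therefore also given without it. Conditions were not tested against each other: with 1 library against 2, an exact permutation over libraries cannot give a p below 0.333.

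CDK8 peaks were densest at HES1. Of the 26 regions, 10 were listed in all 3 libraries (38.5%, Wilson 95% interval 22.4 to 57.5), and over the whole genome 33.0% of regions were. HES1 carried 5 of the 10 and had the best-scoring peak of any of the 7 windows in each library. NOTCH3 carried 2 such regions, and NOTCH1, JAG1 and JAG2 carried 1 each. NOTCH2 had a single peak, in hypoxia 1, and HEY1 had 2 peaks, both in normoxia. Intervals of shares cover counting error only, and regions of 1 gene lie side by side, so they are too narrow.

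**Figure D1:**
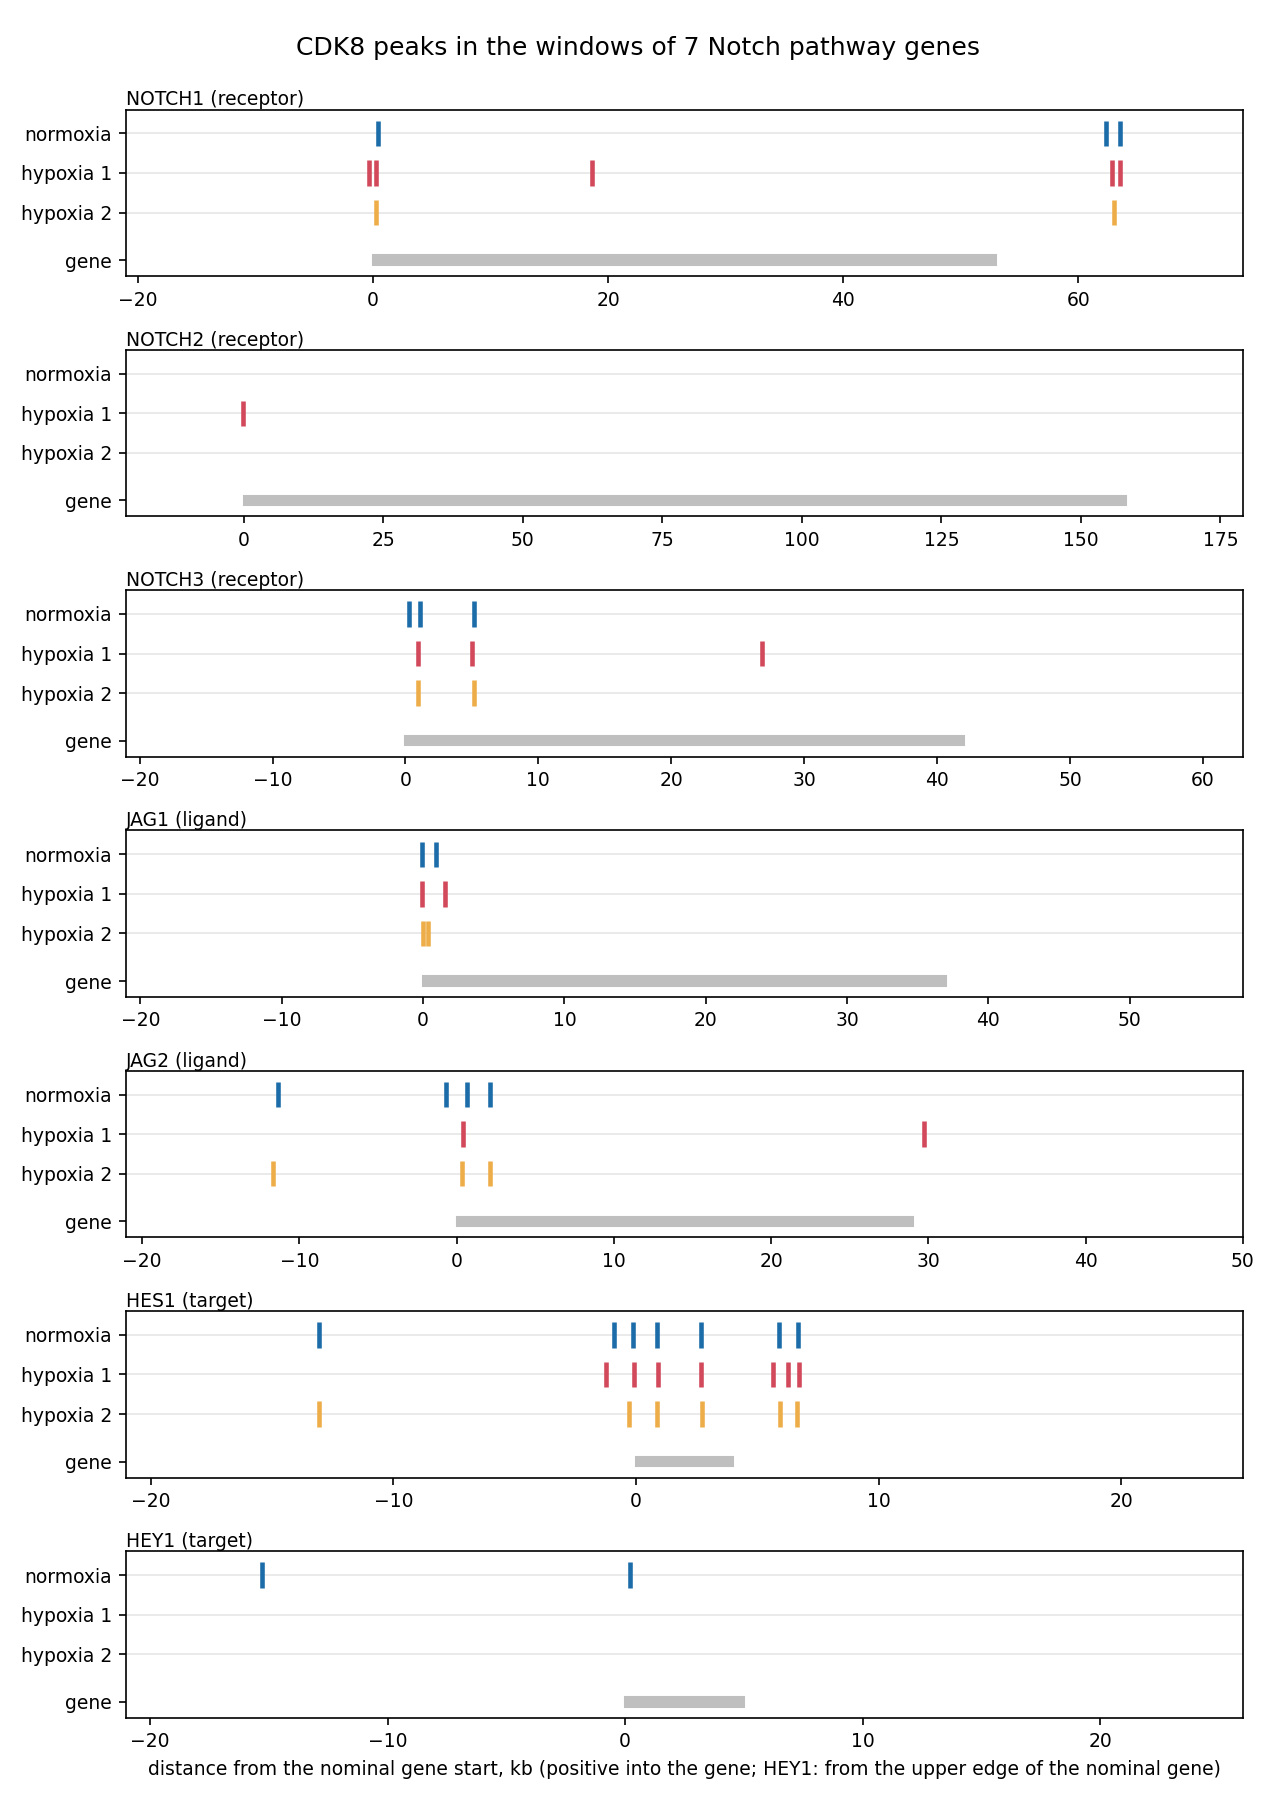
Position of each CDK8 peak centre (coloured ticks) in the window of each gene, by library, in kb from the nominal gene start (for HEY1, from the upper edge of the nominal gene); the grey bar is the nominal gene. HES1 had 7, 7 and 6 peaks in normoxia, hypoxia 1 and hypoxia 2, while NOTCH2 had 0, 1 and 0.

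Gene positions were taken from the windows, since no annotation of the lists' build, GRCh37/hg19, was used here. The nominal gene is the window less 20 kb on each side. Its length differed from the RefSeq gene length (GRCh38.p14) by -0.11 to 1.42 kb, and how far the nominal starts lie from annotated starts was not tested. The strand came from RefSeq for 6 of the 7 genes. In these 6 windows, 12 of 24 regions had an edge within 2 kb of the nominal start, among them 6 of the 10 regions in all 3 libraries. The same share over all regions could not be computed without gene starts in that build, so these counts show no enrichment at starts. Regions are numbered within a window from its lower coordinate.

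Of the receptors, NOTCH1 had 5 regions in its window (chromosome 9, 139368001 to 139461000). NOTCH1 is the receptor best known for its part in intestinal stem and progenitor cells. At its nominal start lay region 5 (139440088 to 139441588, 1501 bp), which all 3 libraries listed. It was a single peak at percentile 86.0 in normoxia, a pair of peaks at 72.3 and 48.1 in hypoxia 1, and a single peak at 41.6 in hypoxia 2. Both hypoxia libraries ranked it lower in their lists than normoxia did, and they differed from each other by more than normoxia differed from hypoxia 1. The peak was 970 bp long in normoxia and 1018 bp in hypoxia 2, while the 2 peaks of hypoxia 1 covered 679 bp. Region 4, inside the gene (139422203 to 139422483), was a low-ranked peak of hypoxia 1 alone at percentile 11.2.

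The other 3 NOTCH1 regions lay close together past the far end of the gene, 9.20 to 10.5 kb beyond its nominal edge. C9orf163 and SEC16A are the next genes on that side in RefSeq's order, and the lists do not assign the regions to a gene. Region 1 (139377269 to 139377546) was in normoxia and hypoxia 1, at percentiles 53.7 and 56.5. Region 2 (139377868 to 139378247) was in hypoxia 1 and hypoxia 2 but not in normoxia, at percentiles 40.3 and 20.5. Region 3 (139378544 to 139378802) was in normoxia alone, and at percentile 0.0655 it was among the lowest-scoring peaks of that list. Region 2 was the only one of the 26 regions with a peak in each hypoxia library and none in normoxia, against 3.18% of all regions. Normoxia peaks flanked it on either side, the nearer of them 296 bp away, and all 3 regions became a single region in all 3 libraries once peaks within 500 bp were joined. Without hypoxia 2, the count of regions in hypoxia and not in normoxia over the 7 windows rose from 1 to 7, and without hypoxia 1 it was 1. With a single hypoxia list left, every region of that list without a normoxia peak is counted. The share over all regions was not computed for that setting, so the rise is not a result about the Notch genes.

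NOTCH2 had 1 region in the longest of the windows (chromosome 1, 120434001 to 120632000). It lay at the nominal start (120612017 to 120612330, 314 bp) and was a peak of hypoxia 1 alone, at percentile 84.4. Normoxia had no peak within 420.9 kb of it, and hypoxia 2 had none within 420.8 kb. Of the 6370 regions of hypoxia 1 alone, 3.27% ranked as high or higher in that list, and their median percentile was 28.0. Without hypoxia 1, NOTCH2 had 0 regions. The NOTCH2NL genes are known as partial copies of the 5′ part of NOTCH2, and reads from such copies may be placed at NOTCH2 or dropped, so this region is uncertain. How the authors treated reads with several placements is not given in the sources used here, and the part of the copies in the result was not tested.

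NOTCH3 had 4 regions in its window (chromosome 19, 15250001 to 15332000). NOTCH3 is a receptor known from the smooth muscle of blood vessels. Region 2 (15306393 to 15307215), 4.79 kb into the gene, was in all 3 libraries at percentiles 90.5 in normoxia, 77.9 in hypoxia 1 and 67.2 in hypoxia 2. It was the best-scoring region of any receptor in normoxia. Region 3 (15310726 to 15311178), 0.822 kb from the nominal start, was at 83.4, 23.3 and 55.9 in the same order. Normoxia ranked both regions higher than either hypoxia library did. A normoxia peak nearer the start, region 4 (15311593 to 15311826), was at percentile 41.2, and the nearest peak of another library was 414 bp away. Region 1 (15285056 to 15285265) was a low-ranked peak of hypoxia 1 alone inside the gene, at percentile 7.22.

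Of the ligands, JAG1 had 3 regions in its window (chromosome 20, 10598001 to 10675000), all within 2 kb of the nominal start. JAG1 encodes a membrane-bound ligand of the Notch receptors. Region 3 (10654442 to 10655363) was in all 3 libraries. Normoxia listed it as 1 peak at percentile 17.1, and hypoxia 1 as 1 peak at 4.58. Hypoxia 2 listed it as 2 peaks at 75.0 and 2.12. The better of these (10654442 to 10654803) overlapped the edge of the normoxia peak and did not reach the peak of hypoxia 1. The stretch with a peak in each library, at the nominal start, thus ranked low in all 3 lists. The nominal JAG1 gene was 0.684 kb longer than the RefSeq gene, so which of these peaks lies at the annotated start was not tested. Next to region 3 came region 2 (10653967 to 10654210), in normoxia alone at percentile 33.8, and region 1 (10653281 to 10653613), in hypoxia 1 alone at 46.4. Each library thus placed its best JAG1 peak at a different spot, in stretches 231 and 353 bp apart, and joining peaks within 500 bp left a single JAG1 region.

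JAG2, the other ligand, had 5 regions in its window (chromosome 14, 105587001 to 105656000). Region 3 (105635067 to 105635801), 0.199 kb from the nominal start, was in all 3 libraries at percentiles 45.7 in normoxia, 3.32 in hypoxia 1 and 20.0 in hypoxia 2. Region 2 (105633443 to 105634346), 1.65 kb into the gene, was at 64.2 in normoxia and 8.61 in hypoxia 2, with no peak in hypoxia 1. Region 4 (105636527 to 105636755), 0.527 kb before the nominal start, was in normoxia alone at 16.7. In these 3 regions normoxia gave the higher percentile or the only peak. Region 5 (105647076 to 105647935) lay 11.1 kb before the start, on the side where NUDT14 is the next gene, and ranked at 33.0 in normoxia and 45.8 in hypoxia 2. Region 1 (105606166 to 105606434), past the far end of the gene, was in hypoxia 1 alone at 5.22. The best JAG2 peak of hypoxia 1 was thus among the lowest-ranked of its list, and without that library JAG2 had 3 regions in both conditions in place of 1.

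Of the targets, HES1 had 6 regions in a window of 44 kb (chromosome 3, 193833001 to 193877000), covering 9.72% of it. The other windows were covered to between 0.159% (NOTCH2) and 4.34% (JAG2). Peaks at HES1 came to 159 per Mb in normoxia, 159 in hypoxia 1 and 136 in hypoxia 2. The whole lists held 6.65, 7.37 and 4.78 peaks per Mb of the span they cover. Over the genome, 4.49% of all regions had 5 or more regions in all 3 libraries within 44 kb centred on them, while HES1 had 5. Counting regions of any pattern, 20.8% of all regions had 6 or more in such a stretch, while HES1 had 6.

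The upstream sequence of HES1 is shown because the best-scoring CDK8 peaks of the 7 windows lay at its nominal start. The nominal HES1 gene was 1.42 kb longer than the RefSeq gene, so which HES1 region lies at the annotated start was not tested. The JAG1 and NOTCH1 sequences, from a ligand and a receptor with a region in all 3 libraries at the nominal start, are for comparison. Each sequence is the 250 bases before the start of the RefSeq gene, 5′ to 3′ in the sense of the gene, in build GRCh38.p14. Capitals mark matches to any of 5 motifs searched on both strands: the RBPJ core TGGGAA, the hypoxia response element core ACGTG, the AP-1 site TGANTCA, the TCF/LEF core CTTTGA, and the E-box CACGTG, which contains ACGTG. The HES1 stretch is chr3:194135898-194136147 on the plus strand, the JAG1 stretch chr20:10674000-10674249 on the minus strand, and the NOTCH1 stretch chr9:136546049-136546298 on the minus strand.
HES1: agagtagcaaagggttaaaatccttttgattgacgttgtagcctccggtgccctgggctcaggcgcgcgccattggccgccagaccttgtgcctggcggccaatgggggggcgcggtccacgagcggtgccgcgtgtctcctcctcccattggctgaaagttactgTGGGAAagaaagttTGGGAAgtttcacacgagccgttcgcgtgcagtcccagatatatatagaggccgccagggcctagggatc
JAG1: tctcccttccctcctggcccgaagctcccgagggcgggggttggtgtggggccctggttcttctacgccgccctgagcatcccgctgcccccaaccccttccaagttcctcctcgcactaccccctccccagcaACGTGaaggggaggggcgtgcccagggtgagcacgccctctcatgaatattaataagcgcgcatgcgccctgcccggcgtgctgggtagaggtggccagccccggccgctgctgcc
NOTCH1: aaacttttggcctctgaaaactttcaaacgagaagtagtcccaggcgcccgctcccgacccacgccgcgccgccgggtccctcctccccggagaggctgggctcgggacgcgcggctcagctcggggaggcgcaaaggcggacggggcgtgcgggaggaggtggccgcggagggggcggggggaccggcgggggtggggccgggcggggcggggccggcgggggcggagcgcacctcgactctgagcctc
HES1 held TGGGAA at 2 places, 84 to 79 and 70 to 65 bases before the start, both on the strand of the gene. Over 35116 RefSeq promoters, 20.8% held TGGGAA in this stretch and 2.90% held it at 2 or more places. None of the 5 other members with a sequence held it. JAG1 held ACGTG at 1 place, 116 to 112 bases before the start, and 18.5% of all promoters held it. NOTCH1, NOTCH2, NOTCH3 and JAG2 held none of the 5 motifs in this stretch. Their base composition differed from that of HES1: G and C made up 59.2% of the HES1 stretch and 68.4% of that of JAG1, 72.8% at NOTCH2, 76.0% at NOTCH1, 78.0% at NOTCH3 and 81.6% at JAG2, where the median promoter had 58.0%. Matches are a description of these letters and not of factor binding, and the stretches and the CDK8 peaks are in different builds and were not intersected.

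At the nominal start of HES1 lay region 2 (193851609 to 193853097, 1489 bp). Its best peak was at percentile 98.4 in normoxia, 94.7 in hypoxia 1 and 98.1 in hypoxia 2. These were ranks 310, 1169 and 265 from the top of the lists, so that the 3 libraries lay within a few percentiles of each other. The best peaks shared their right edge closely, which was 193853078 in normoxia, 193853097 in hypoxia 1 and 193853096 in hypoxia 2. Farther upstream in the region, normoxia listed a further peak of 992 bp at percentile 70.4 and hypoxia 1 one of 227 bp at 50.2. Hypoxia 2 listed 1 peak of 790 bp, in the downstream part of the region.

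**Figure D2:**
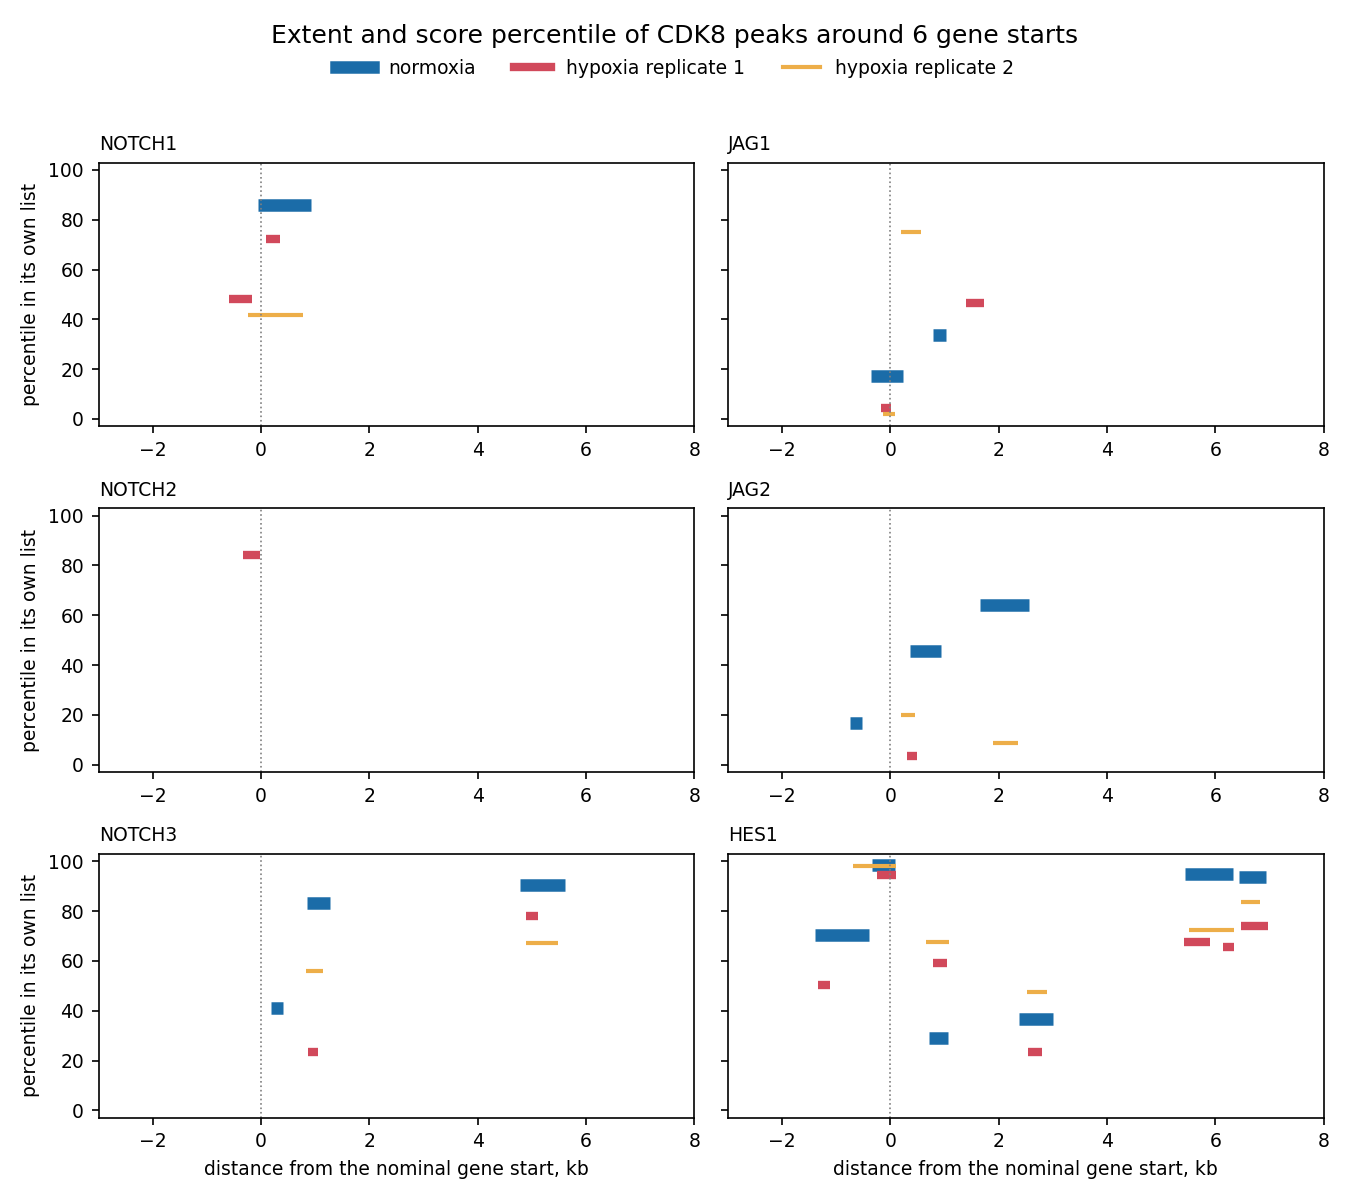
Extent (bar length, in kb from the nominal gene start) and score percentile in its own list (height) of each CDK8 peak around 6 gene starts, by library; bar thickness only separates the libraries. At HES1 the best peaks at the nominal start ranked at 98.4, 94.7 and 98.1. The peaks of a further pair of regions, past the nominal gene, ranked from 65.6 to 94.9.

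The other HES1 regions lay in and past the gene. Region 3 (193853661 to 193854077), 0.66 kb from the nominal start, was at percentiles 29.2 in normoxia, 59.3 in hypoxia 1 and 67.5 in hypoxia 2. It was the only region of the 10 in all 3 libraries that both hypoxia libraries ranked higher than normoxia, against 23.6% of such regions over the genome. Region 4 (193855377 to 193856003) was at 36.6, 23.3 and 47.5 in the same order, so that normoxia lay between the hypoxia libraries. Past the nominal gene by 1.41 and 2.43 kb came region 5 (193858412 to 193859351) and region 6 (193859432 to 193859969). The best peak of region 5 was at 94.9, 67.6 and 72.6, and hypoxia 1 listed a further peak there at 65.6. Region 6 was at 93.7, 73.9 and 83.7. Normoxia ranked both of these higher than either hypoxia library did, and they were the next best of the window. Region 1 (193839810 to 193840074), 12.9 kb before the start, was in normoxia at 49.9 and in hypoxia 2 at 58.0, with no peak in hypoxia 1 within 11.6 kb. With either hypoxia library left out, 6 HES1 regions were in both conditions. Without hypoxia 2, region 2 came apart into 2 regions, since the peak of that library bridged it.

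HEY1, the other target, differed from HES1 in having no peak in either hypoxia list. Its window (chromosome 8, 80656001 to 80701000) held 2 normoxia peaks. Region 1 (80680608 to 80680978, 371 bp) lay inside the nominal gene, next to its upper edge, and ranked at percentile 19.2. Region 2 (80696147 to 80696404, 258 bp) lay 15.1 kb beyond the upper edge of the nominal gene, on the side of the noncoding gene LINC01607, and ranked at 39.4. Both ranked in the lower part of the normoxia list. Whether a signal under the calling threshold was present there in hypoxia was not tested, since the lists hold called peaks alone. The nearest peak of hypoxia 1 to either was 9.54 kb away, and that of hypoxia 2 was 245.9 kb away.

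Over the 7 windows, 6 regions were in normoxia alone (23.1%, 11.0 to 42.1), against 13.2% of all regions. The 6 were 1 each at NOTCH1, NOTCH3, JAG1 and JAG2 and 2 at HEY1. The highest of them ranked at 41.2 in the normoxia list, and with equal list sizes (each list cut to its 14256 best peaks) 3 such regions remained in count. Hypoxia 1 alone listed 5 regions (19.2%, 8.51 to 37.9; all regions 22.6%), and hypoxia 2 alone listed 0 of 26, which allows a share of up to 11.5% (all regions 5.46%). Normoxia shared 1 region with hypoxia 1 alone (3.85%; all regions 15.9%) and 3 with hypoxia 2 alone (11.5%, 4.00 to 29.0; all regions 6.65%). The interval of the region shared with hypoxia 1 was 0.682 to 18.9. Each of these intervals includes the share over all regions.

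**Figure D3:**
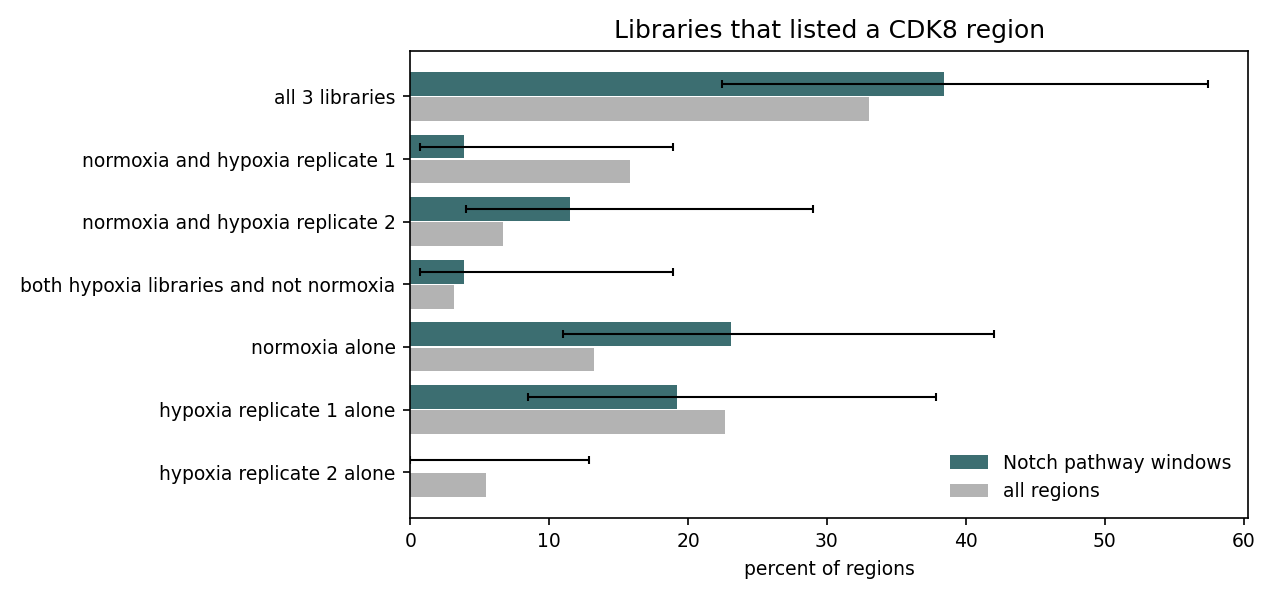
Percent of regions listed by each combination of libraries, for the 26 regions of the Notch pathway windows (with Wilson 95% intervals, counting error only) and for all 28150 regions, which include the 26. Regions in all 3 libraries made up 38.5% and 33.0%.

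Of the 11 regions that a single library listed, 4 had a peak of another library within 500 bp (36.4%, 15.2 to 64.6). The interval includes the 18.3% of such regions over the genome. The 4 were NOTCH1 region 3, NOTCH3 region 4 and JAG1 regions 1 and 2, all but the first within 2 kb of a nominal gene start. Without hypoxia 1, a choice made after seeing the data, 5 of 8 such regions had a peak of another library within 500 bp (13.8% over the genome). No interval was computed for that share. Between the libraries, 11 of the 21 normoxia peaks in the windows overlapped a peak of both hypoxia lists (52.4%, 32.4 to 71.7), against 47.7% of the whole list. For hypoxia 1 these were 11 of 20 peaks (55.0%, 34.2 to 74.2; whole list 44.3%), and for hypoxia 2 they were 10 of 15 (66.7%, 41.7 to 84.8; whole list 67.9%). Each of the 3 intervals includes the share of the whole list.

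Among the 10 regions in all 3 libraries, normoxia had the highest percentile in 7 (70.0%, 39.7 to 89.2), against 34.7% of such regions over the genome. Unlike the intervals above, this one lies above the share over the genome, and it covers counting error only. The 7 were NOTCH1 region 5, NOTCH3 regions 2 and 3, JAG2 region 3 and HES1 regions 2, 5 and 6. Normoxia lay between the hypoxia libraries in 2 and below both in 1. With equal list sizes, normoxia was highest in 4 of the 6 regions that were then in all 3 libraries, against 29.9% over the genome. Without hypoxia 1, again chosen after seeing the data, normoxia ranked higher than hypoxia 2 in 8 of the 13 regions that both listed, against 61.7% over the genome, so that the share at the Notch genes was then near the background. Regions of 1 gene are not independent, normoxia is 1 library, and percentiles do not measure the amount of CDK8. The same regions also differed in length. Normoxia peaks covered the longest stretch in 8 of the 10 (80.0%, 49.0 to 94.3, against 56.6% over the genome). Those of hypoxia 1 covered the shortest in 9 of the 10 (45.8% over the genome), a share for which no interval was computed. The medians were 611 bp in normoxia, 257 bp in hypoxia 1 and 502 bp in hypoxia 2. Over the genome the medians were 481, 388 and 401 bp. Without hypoxia 1, normoxia covered the longer stretch in 10 of the 13 regions (70.4% over the genome), with medians of 594 bp against 453 bp in hypoxia 2. The part of read depth or fragment length in these differences was not tested.

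**Figure D4:**
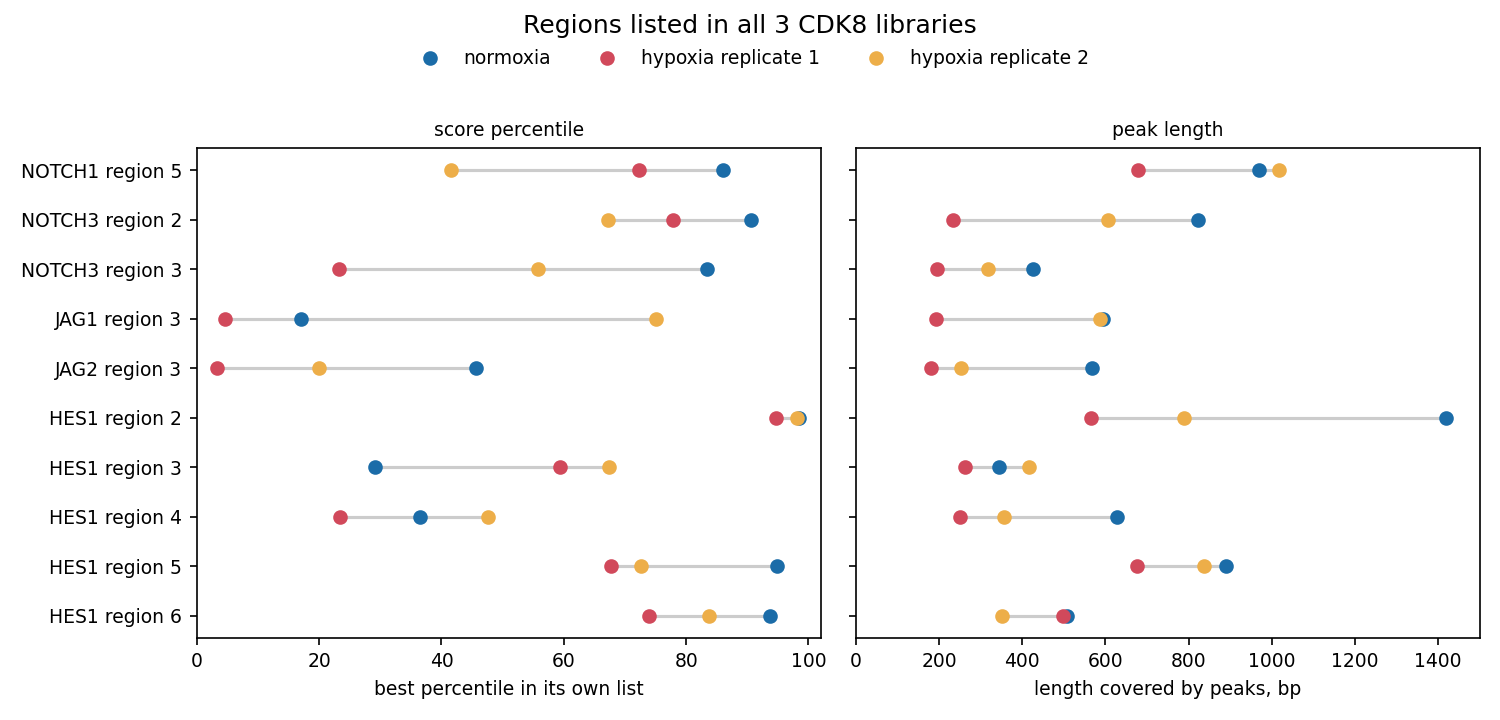
Best score percentile in its own list (left) and length covered by peaks in bp (right) for the 10 regions in all 3 libraries, by library; grey lines join the lowest and the highest of the 3 single values, and there is no error bar because normoxia has 1 library. Percentiles lay close together only at HES1 region 2 (94.7 to 98.4), and normoxia was highest in 7 of the 10.

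The order of the genes by their best peak held at the top and varied below it. HES1 came first in each library. In normoxia NOTCH3 followed at 90.5, NOTCH1 at 86.0, JAG2 at 64.2, HEY1 at 39.4 and JAG1 at 33.8. In hypoxia 1, NOTCH2 came second at 84.4, then NOTCH3 at 77.9, NOTCH1 at 72.3, JAG1 at 46.4 and JAG2 at 5.22. In hypoxia 2, JAG1 came second at 75.0, then NOTCH3 at 67.2, JAG2 at 45.8 and NOTCH1 at 41.6. In all 3 libraries NOTCH3 stood above NOTCH1 and above JAG2, and the other places changed. Over the hypoxia pair, HES1 (94.7 to 98.1) did not overlap NOTCH3 (67.2 to 77.9). NOTCH3 overlapped JAG1 (46.4 to 75.0) and NOTCH1 (41.6 to 72.3), and NOTCH1 overlapped JAG2 (5.22 to 45.8). The hypoxia libraries had their best peaks in different regions at JAG1 (regions 1 and 3) and at JAG2 (regions 1 and 5). These ranges are therefore not the spread of replicates at the same site, and whether the genes differ was not tested. Without hypoxia 1 there is a single hypoxia value per gene and no such range.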

How the data were processed

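CDK8 ChIP-seq of HCT116 cells was analysed from 3 peak lists, 1 per CDK8 library. The submitters' processing notes name MACS2 2.0.9, Bowtie 0.12.7, CASAVA 1.8.2 and FastQC, and build GRCh37/hg19; the sources used here do not give their roles, parameters, read filters or threshold. The deposited score is the authors' value per peak, with its scale not stated. The lists are named as merged, of what is not given. Starts count from 0 in the lists and from 1 here. An overlap of 1 bp counted. The members and lists were chosen with earlier results of these data known. Named regions were, for each window, the best and the widest in all 3 libraries and those of normoxia alone or of both hypoxia libraries only; the others were placed too where a window held 5 or fewer, and HES1 region 1 and the rest of its window were added after their values were seen. Other Notch pathway genes were not placed, since no GRCh37/hg19 annotation was used; their promoters came from RefSeq. The joining code was checked on simulated lists of 7000 regions that lay well apart and held no near misses. That check does not bear on how closely spaced peaks were joined here. Alternatives were equal list sizes, the 50% of each list with the best scores, joining within 500 bp, windows trimmed by 15 kb, an overlap of 50% of both peaks, centres within 500 bp, and leaving out hypoxia 1 or hypoxia 2; the values over the windows without hypoxia 1 were added after seeing the data. Python 3.11.15, numpy 2.4.6, pandas 2.3.3, scipy 1.17.1 and matplotlib 3.10.9 were used.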

Additional observations from a re-analysis of the deposited data

How the results depend on the processing

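With the better-scoring 50% of each list, 12 regions were left, of which 4 were in all 3 libraries and 1 in normoxia alone, from 9 peaks in normoxia, 10 in hypoxia 1 and 8 in hypoxia 2. With equal list sizes 6 regions were in all 3 libraries (4 at HES1 and 1 each at NOTCH1 and NOTCH3) and 3 in normoxia alone; hypoxia 1 kept 13 peaks, and 40.0% of the peaks of hypoxia 2 overlapped both other lists. Joining peaks within 500 bp left 0 regions with peaks in each hypoxia library and none in normoxia, and 3 of normoxia alone. Trimming the windows by 15 kb left 0 of the former, since NOTCH1 region 2 lies past the gene. When 50% of each peak had to overlap, the shares overlapping both other lists were 19.0% in normoxia, 10.0% in hypoxia 1 and 26.7% in hypoxia 2. Leaving out either hypoxia library gave 21 to 28 regions, 12 to 13 in both conditions, 1 to 7 in hypoxia and not in normoxia, and 7 to 9 in normoxia alone. Shares of these classes over all regions were not computed with a library left out. The share of normoxia peaks overlapping the remaining list was then 57.1% to 66.7%; it was 65.0% for hypoxia 1 and 93.3% for hypoxia 2. Fewer peaks or lists, shorter windows, wider joining and a stricter overlap bear on these counts by construction, and no further cause was tested. The other 34 of 52 values stayed within 1.5 times the reported count or within its interval. Of 84 further values, for counts of single genes, 60 stayed equal or within 1.5 times and 24 did not. With the better-scoring 50% of each list, HEY1 went from 2 regions to 0, and NOTCH1 from 1 region in all 3 libraries to 0. No paired analysis was possible because the labels number the hypoxia libraries only. Depth limits what an absent peak shows, and read counts were not analysed here.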

Other observations

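Other genes of the Notch pathway could be described by their promoters only. Of 41 genes listed, 33 had a RefSeq sequence, and 8 of these (24.2%) held TGGGAA in the 250 bases before the start, against 20.8% of all promoters. Among the HES and HEY family genes of this list, 4 of 7 held it, a group too small to set against the share of all promoters. HES5 and HEYL held it at 2 places each, as HES1 did, and HES4 and HEY2 at 1 place each. HES2, HES6 and HES7 held it at 0. The other 4 were PSENEN, a subunit of gamma-secretase, FURIN, which cuts the Notch precursor, POGLUT1, which adds glucose to Notch, and DTX2 of the Deltex family. The hypoxia response element core ACGTG was held by 4 of the 33 (12.1%; all promoters 18.5%), namely the proteases ADAM10 and ADAM17, NCSTN of gamma-secretase, and POGLUT1. Near NOTCH2, the neighbouring 1 Mb on chromosome 1 from 121 to 122 Mb held 7 peaks in hypoxia 1, 1 in normoxia and 2 in hypoxia 2, and the 1 Mb that holds NOTCH2 (120 to 121 Mb) held 2, 2 and 1.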
